A study of Mus musculus with 12 samples.

Results

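The genes described here encode the machinery by which a cell makes cholesterol and fatty acids. The list was compiled by function, with earlier results of these data known. It holds 5 regulators of the pathway, 7 enzymes from acetyl-CoA to farnesyl diphosphate (the mevalonate enzymes) and 11 enzymes from squalene to cholesterol (the sterol enzymes). The sterol carrier *Stard4* and 8 enzymes of fatty acid synthesis, desaturation and elongation complete it. All 32 were found by symbol among the 24561 genes of the count table, and all 32 passed the filter on low counts.

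RNA was sequenced from T follicular helper (Tfh) cells, the CD4+ T cells that give help to B cells in follicles. Ovalbumin-specific OT-II T cells from C57BL/6 mice were transferred into CD45.1 SAP-deficient mice, whose own T cells lack the SAP adaptor, and the recipients were immunized the next day with the hapten-carrier conjugate NP-OVA plus LPS in alum. At day 3 after immunization, CXCR5hiPD-1hi OT-II cells were sorted from the draining lymph node and libraries were made by SMART-Seq2 from about 200 cells. The wild-type group received cells of genotype CD4-Cre and the BCL6-insufficient group cells of genotype CD4-CrexBcl6fl/+, with 3 recipient mice per group and 2 technical repeats per mouse, or 12 libraries. The Cre is therefore present in both groups, and it is driven by *Cd4*, so the floxed allele can be lost before the Tfh stage. Ages and the number of donor mice per genotype were not stated in the sources used here. Had all recipients of 1 genotype been given cells of the same donor, genotype and donor cannot be told apart, and the p-values then measure the spread between recipients only.

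Cholesterol synthesis is governed by SREBP2, the product of *Srebf2*, and fatty acid synthesis mainly by SREBP1, the product of *Srebf1*. The escort protein SCAP carries both from the endoplasmic reticulum to the Golgi for cleavage when membrane sterol is low, and INSIG1 and INSIG2 hold the complex back when sterol is plentiful. T cells are known to switch this program on when they become activated, because growth and division need new membrane, and isoprenoids from the mevalonate branch anchor signaling proteins.

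Libraries of the BCL6-insufficient group held between 3343375 and 8315722 counts in total, and those of the wild-type group between 5240715 and 7266106. Counts of both repeats were summed per mouse and are given below as normalized CPM, meaning the count relative to the library size after TMM scaling. The groups were compared with edgeR's quasi-likelihood test over 12719 genes with Benjamini-Hochberg adjustment, and a gene was called when its adjusted p was under 0.05. *Bcl6* itself was read at 150, 146 and 150 CPM in the mice labelled BCL6-insufficient and at 54.8, 75.6 and 56.9 CPM in those labelled wild-type. The difference was 1.25 ± 0.12 on the log2 scale (SE, adjusted p = 6.3e-07). The transcript of the targeted gene was thus higher in the libraries labelled BCL6-insufficient. A count over the whole gene does not separate an intact from a recombined allele, so groups are named by their labels and every direction below rests on those labels.

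The start-proximal sequence of the pathway genes is shown first, because SREBPs bind sterol regulatory elements close to the start, commonly beside a CCAAT box bound by NF-Y. RefSeq promoters (GRCm38.p6, 250 bases before to 50 bases after the start) were on hand for 25 of the 32 genes, with 33 promoters in all. Not used here were *Fdps*, *Fdft1*, *Sqle*, *Stard4*, *Scd1*, *Scd2* and *Fads1*. The 160 bases before the RefSeq start are printed 5′ to 3′ on the strand of the gene. They are shown for the 5 genes that were lower in the BCL6-insufficient group and hold a CCAAT box upstream of that start. *Hmgcs1* is added as the single gene among the 25 whose promoters held TCACNCCAC, the form of the sterol regulatory element searched here. Other forms of the element were not searched. Capitals mark CCAAT, its reverse complement ATTGG, and in *Hmgcs1* also the sterol regulatory element. The stretches lie at chr15:82147109-82147268 (plus strand) for *Srebf2*, chr5:114444109-114444268 (plus) for *Mvk*, chr13:8885446-8885605 (plus) for *Idi1*, chr19:6067851-6068010 (minus) for *Tm7sf2*, chr7:143830054-143830213 (plus) for *Dhcr7* and chr13:119690191-119690350 (plus) for *Hmgcs1*. That of *Dhcr7* belongs to 1 of its 3 listed promoters, chosen for holding the most matches of CCAAT and the sterol regulatory element. The E-box of *Dhcr7* lies in another of the 3. The gene spans given below come from a different annotation, with other starts for some genes. The stretches of *Srebf2* and *Idi1* lie partly, and those of *Tm7sf2* and *Dhcr7* wholly, within those spans.
*Srebf2*: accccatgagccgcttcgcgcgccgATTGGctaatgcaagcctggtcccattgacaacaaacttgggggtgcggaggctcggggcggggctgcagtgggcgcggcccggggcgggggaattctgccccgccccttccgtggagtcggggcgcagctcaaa
*Mvk*: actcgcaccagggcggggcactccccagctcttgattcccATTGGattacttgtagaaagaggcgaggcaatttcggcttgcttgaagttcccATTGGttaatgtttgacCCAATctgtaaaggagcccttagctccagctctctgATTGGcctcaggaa
*Idi1*: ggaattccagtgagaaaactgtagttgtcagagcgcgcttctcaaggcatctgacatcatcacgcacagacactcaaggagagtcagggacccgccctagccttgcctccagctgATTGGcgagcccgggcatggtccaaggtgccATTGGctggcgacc
*Tm7sf2*: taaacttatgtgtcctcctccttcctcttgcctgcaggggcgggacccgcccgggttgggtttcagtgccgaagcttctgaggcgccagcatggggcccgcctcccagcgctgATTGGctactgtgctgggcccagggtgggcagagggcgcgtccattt
*Dhcr7*: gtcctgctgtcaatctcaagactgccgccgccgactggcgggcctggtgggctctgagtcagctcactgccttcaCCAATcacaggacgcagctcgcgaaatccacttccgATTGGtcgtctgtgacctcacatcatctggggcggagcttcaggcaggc
*Hmgcs1*: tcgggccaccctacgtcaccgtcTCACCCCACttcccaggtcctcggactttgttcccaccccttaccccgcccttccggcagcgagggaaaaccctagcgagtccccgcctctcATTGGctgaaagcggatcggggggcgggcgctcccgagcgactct

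The CCAAT box, searched on both strands, was in a promoter of 20 of the 25 genes (80.0%), against 41.1% of all 27025 genes with a RefSeq promoter. In the stretches above it occurred 4 times in *Mvk*, 2 times in *Idi1* and in *Dhcr7*, and 1 time in *Srebf2*, *Tm7sf2* and *Hmgcs1*. The sterol regulatory element, searched as TCACNCCAC on both strands, was in 1 of the 25 genes (4.0%, against 1.44% of all genes), at 137 bases before the start of *Hmgcs1*. The E-box CACGTG, a palindrome that SREBPs can also bind, was in 5 of the 25 (20.0%, against 8.09%), namely *Scap*, *Insig1*, *Hsd17b7*, *Sc5d* and *Dhcr7*. No match of these 3 motifs overlapped a match of another of the 3, while a CCAAT and an ATTGG of *Fasn*, at 62 and 59 bases before the start, overlap each other. The matches describe letters within these windows, and the CCAAT box was found in genes that were called lower and in genes that were not, such as *Lss*, *Ebp* and *Msmo1*.

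Of the 32 genes, 8 were lower in the BCL6-insufficient group (25.0%) and 0 were higher. Among all genes tested, 8.82% were called lower and 9.17% higher. At an unadjusted p under 0.05 there were 9 lower (28.1%, against 15.2% of all genes) and 2 higher (6.25%, against 15.7%). DESeq2 called 8 lower and 0 higher, with 1286 of all genes lower (10.1%) and 1276 higher. The log2 fold change was negative in 25 of the 32 (78.1%, against 49.0% of all genes), and its median was −0.18 against 0.01 for all genes. Because the list was chosen with earlier results of these data known, it was not tested as a set. In 8 of the 32 genes (25.0%), which were the 8 called, each of the BCL6-insufficient mice lay below each of the wild-type mice, and this was so for 17.0% of all genes tested. By role, the lower genes were 1 of 5 regulators, 2 of 7 mevalonate enzymes, 3 of 11 sterol enzymes, 0 of 1 carrier and 2 of 8 fatty acid enzymes. In these bulk libraries, fewer cells that express a gene and less RNA per cell cannot be told apart.

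**Figure D1:**
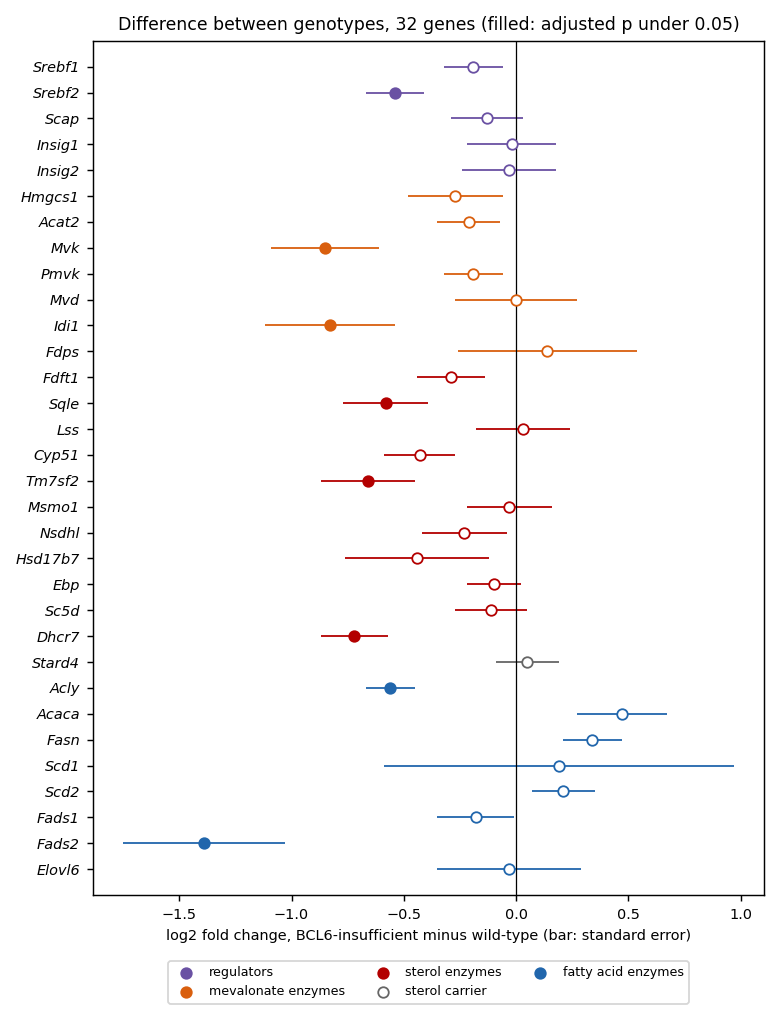
Log2 fold change (x axis, BCL6-insufficient minus wild-type, bar: standard error of the edgeR fit, 3 mice per group) of the 32 genes (y axis), colored by role, with filled points for an adjusted p under 0.05. The 8 filled points all lie left of 0, from −0.54 for *Srebf2* to −1.39 for *Fads2*, while *Acaca* at 0.47 and *Fasn* at 0.34 are the open points farthest to the right.

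Among the regulators, *Srebf2*, the master transcription factor of cholesterol synthesis, was lower. It lies on chromosome 15 from 82147181 to 82205379. Its normalized CPM was 61.7, 76.0 and 51.9 in the BCL6-insufficient mice and 79.9, 99.5 and 96.3 in the wild-type mice. The groups did not overlap, although BCL6-insufficient mouse 2 came within a few CPM of wild-type mouse 1. The means were 63.2 ± 12.1 and 91.9 ± 10.5 (SD, n = 3 mice each), or 31.2% lower, with a log2 fold change of −0.54 ± 0.13 (SE, edgeR adjusted p = 0.00719). *Srebf1* showed a smaller difference in the same direction that did not pass, at 75.7 ± 12.3 against 86.6 ± 9.12 CPM (SD, n = 3), with a log2 fold change of −0.19 ± 0.13 (adjusted p = 0.331). The lowest mouse for *Srebf1* was BCL6-insufficient mouse 3 at 61.7 CPM, and the other mice overlapped.

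The genes that move and retain the SREBPs gave no call. *Scap*, the escort, was read at 29.4 ± 4.41 against 32.2 ± 2.09 CPM (adjusted p = 0.634). *Insig1*, itself a classic SREBP target whose protein retains SCAP, was read at 30.9, 32.4 and 17.6 CPM in the BCL6-insufficient mice and at 24.4, 26.8 and 31.5 CPM in the wild-type mice. BCL6-insufficient mouse 3 was the low one, and the other 5 mice overlapped, so that the log2 fold change was −0.02 ± 0.20 (SE, adjusted p = 0.951). *Insig2*, the second retention protein, was at −0.03 ± 0.21 (adjusted p = 0.933). The 985 exon bases that *Scap* shares with the opposite-strand gene *5830462I19Rik* could not be assigned, because the strandedness of the counting was not stated.

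Among the mevalonate enzymes, *Mvk* and *Idi1* were lower. *Mvk* encodes mevalonate kinase, which phosphorylates mevalonate, and lies on chromosome 5 from 114444269 to 114460591. It was read at 10.9, 8.66 and 7.20 CPM in the BCL6-insufficient mice and at 13.5, 14.9 and 19.9 CPM in the wild-type mice. The groups were apart, with wild-type mouse 3 the highest, and the mean was 44.4% lower (8.92 ± 1.88 against 16.1 ± 3.37 CPM, SD, n = 3). *Mvk* differed by a log2 fold change of −0.85 ± 0.24 (SE, edgeR adjusted p = 0.0174).

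*Idi1* encodes the isomerase that supplies dimethylallyl diphosphate and lies on chromosome 13 from 8885501 to 8892451. Its values were 6.11, 6.65 and 9.36 CPM in the BCL6-insufficient mice and 10.3, 9.51 and 19.2 CPM in the wild-type mice. BCL6-insufficient mouse 3 and wild-type mouse 2 were nearly level, and wild-type mouse 3 stood well above all others. The log2 fold change was −0.83 ± 0.29 (SE, edgeR adjusted p = 0.0493), close to the threshold. Of the 50-base windows in the longest *Idi1* transcript, 30.5% also occur in other genes, *Gm13502* foremost, so its count depends on how such reads were treated.

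The other 5 mevalonate enzymes were not called. *Hmgcs1*, which makes HMG-CoA and holds the sterol regulatory element printed above, was read at 41.7, 43.6 and 22.5 CPM in the BCL6-insufficient mice and at 37.0, 36.3 and 57.1 CPM in the wild-type mice. The groups overlapped. BCL6-insufficient mouse 3 was the lowest and wild-type mouse 3 the highest, the other BCL6-insufficient mice lay above the other wild-type mice, and the log2 fold change was −0.27 ± 0.21 (adjusted p = 0.401). *Acat2* (acetoacetyl-CoA thiolase) and *Pmvk* (phosphomevalonate kinase) stood at −0.21 and −0.19 with adjusted p of 0.346 and 0.37. *Mvd*, the decarboxylase, had nearly equal means of 16.1 ± 1.59 and 16.1 ± 8.64 CPM (SD, n = 3), but its wild-type mice spread from 9.07 to 25.8 CPM. *Fdps*, which makes farnesyl diphosphate, was at 4.02 ± 1.24 against 3.63 ± 0.299 CPM. It shares 1124 exon bases with *Gm43738* on the same strand, and 45.9% of the 50-base windows of the longest *Acat2* transcript recur in other genes, mainly *Acat3*, so these counts are uncertain.

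Among the sterol enzymes, *Sqle*, *Tm7sf2* and *Dhcr7* were lower. *Dhcr7*, the reductase that completes cholesterol, had the smallest p of the 3 and lies on chromosome 7 from 143823145 to 143848410. It was read at 26.1, 34.6 and 25.9 CPM in the BCL6-insufficient mice and at 46.6, 46.8 and 48.9 CPM in the wild-type mice. The wild-type mice were closely grouped and every BCL6-insufficient mouse lay well below them, a decrease of 39.2% (28.9 ± 4.99 against 47.4 ± 1.25 CPM, SD, n = 3). For *Dhcr7* the log2 fold change was −0.72 ± 0.15 (SE, edgeR adjusted p = 0.00206).

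*Tm7sf2* encodes a C14 sterol reductase and lies on chromosome 19 from 6062821 to 6068373. Its values of 11.4, 11.3 and 9.66 CPM in the BCL6-insufficient mice were all below the 17.6, 16.5 and 17.0 CPM of the wild-type mice. The spread within either group was small at the level of the mouse, and the log2 fold change was −0.66 ± 0.21 (SE, edgeR adjusted p = 0.033). Its single libraries did overlap, at 7.74 to 14.5 CPM in the BCL6-insufficient group and 10.1 to 22.1 CPM in the wild-type group, and 532 of its exon bases are shared with *Vps51* on the same strand.

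*Sqle* encodes squalene epoxidase, a rate-controlling enzyme of the sterol branch, and lies on chromosome 15 from 59315077 to 59331192. It was read at 23.1, 26.6 and 20.6 CPM in the BCL6-insufficient mice and at 31.7, 27.7 and 45.9 CPM in the wild-type mice. BCL6-insufficient mouse 2 and wild-type mouse 2 were about 1 CPM apart, and wild-type mouse 3 was again the highest. *Sqle* had a log2 fold change of −0.58 ± 0.19 (SE, edgeR adjusted p = 0.0326).

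*Cyp51*, the lanosterol demethylase, came close to the threshold at 42.9 ± 7.13 against 57.6 ± 11.8 CPM (SD, n = 3), a log2 fold change of −0.43 ± 0.16 (adjusted p = 0.0628), with BCL6-insufficient mouse 2 at 49.9 CPM above wild-type mouse 1 at 45.1 CPM. It passed in 5 of 22 alternatives, namely voom (adjusted p = 0.0327), filters of at least 1 count in any mouse (0.0231) or at least 10 counts in every library (0.0459), and the fits without BCL6-insufficient mouse 2 (0.0435) or wild-type mouse 1 (0.0187). *Fdft1* (squalene synthase) was at −0.29 and *Hsd17b7* at −0.44, with adjusted p of 0.2 and 0.377. The remaining *Lss*, *Msmo1*, *Nsdhl*, *Ebp* and *Sc5d*, which close the sterol ring and remodel it, lay between −0.23 for *Nsdhl* and 0.03 for *Lss*. *Ctsb* overlaps 774 exon bases of *Fdft1* on the opposite strand. The cytosolic sterol carrier *Stard4*, another known SREBP2 target, was read at 46.0, 51.6 and 46.6 CPM in the BCL6-insufficient mice and at 37.7, 46.9 and 54.7 CPM in the wild-type mice, so the groups overlapped (log2 fold change 0.05 ± 0.14, adjusted p = 0.862).

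**Figure D2:**
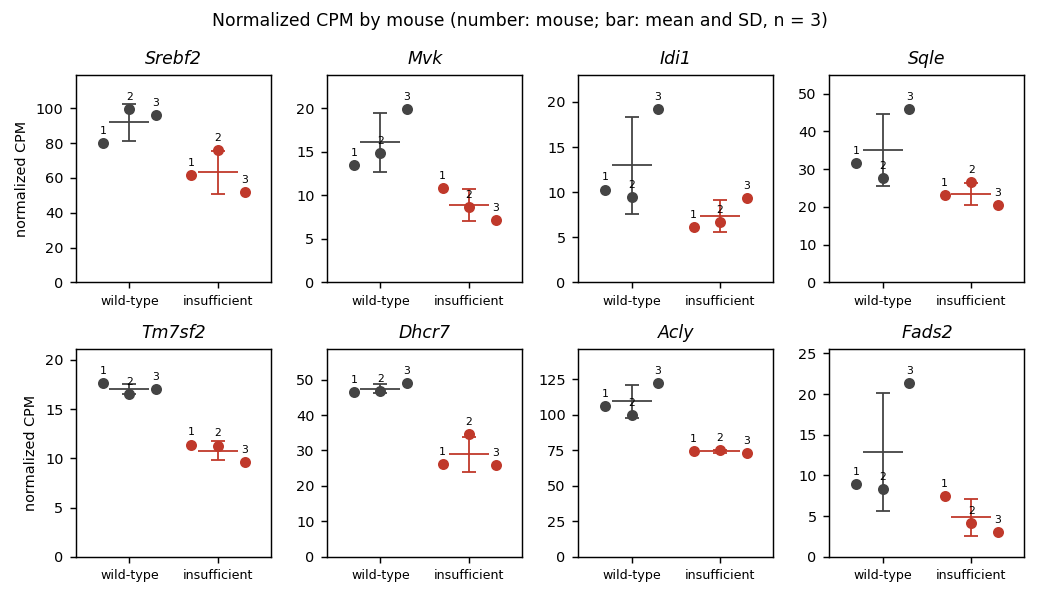
Normalized CPM (y axis) of the 8 genes called lower in the wild-type and BCL6-insufficient mice (x axis), with points numbered by mouse and bars for the mean and SD of 3 mice. The groups are apart in every panel, by the least in *Idi1* (9.36 below 9.51), and wild-type mouse 3 is far above the other wild-type mice in *Idi1* (19.2) and *Fads2* (21.3).

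The fatty acid enzymes were split. *Acly*, which makes cytosolic acetyl-CoA from citrate for both cholesterol and fatty acids, lies on chromosome 11 from 100476353 to 100528000 and had the smallest p of all 32 genes. It was read at 74.2, 75.0 and 73.2 CPM in the BCL6-insufficient mice and at 106, 100 and 122 CPM in the wild-type mice. The BCL6-insufficient mice were almost identical, and even the single libraries did not overlap, at 62.1 to 90.0 CPM against 90.5 to 124 CPM. *Acly* had a log2 fold change of −0.56 ± 0.11 (SE, edgeR adjusted p = 0.00119), or 32.2% lower.

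*Fads2*, the Δ6 desaturase of polyunsaturated fatty acids, lies on chromosome 19 from 10062765 to 10101746 and had the largest fold of the list. It was read at 7.43, 4.11 and 3.08 CPM in the BCL6-insufficient mice and at 8.97, 8.36 and 21.3 CPM in the wild-type mice. The groups were apart, but wild-type mouse 3 was far above wild-type mice 1 and 2, and BCL6-insufficient mouse 1 nearly reached them. The log2 fold change was −1.39 ± 0.36 (SE, edgeR adjusted p = 0.00947). Its neighbor on the chromosome, the Δ5 desaturase *Fads1*, was not called, at 31.9 ± 4.92 against 36.1 ± 7.26 CPM (SD, n = 3, adjusted p = 0.518).

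The enzymes that commit acetyl-CoA to fatty acids had positive differences that did not pass. *Fasn*, the fatty acid synthase, was read at 89.4, 106 and 90.0 CPM in the BCL6-insufficient mice and at 66.8, 89.4 and 68.5 CPM in the wild-type mice. Wild-type mouse 2 was level with BCL6-insufficient mouse 1, and the log2 fold change was 0.34 ± 0.13 (adjusted p = 0.0624). *Fasn* passed in 6 of 22 alternatives. *Acaca*, the acetyl-CoA carboxylase, was at 22.5 ± 3.86 against 16.2 ± 2.80 CPM (SD, n = 3), a log2 fold change of 0.47 ± 0.20 (adjusted p = 0.116). Of the 50-base windows of the longest *Acaca* transcript, 52.6% recur in *Gm5182*, so its count is uncertain. The stearoyl-CoA desaturase *Scd2* was the most abundant of the group at 205 ± 51.8 against 178 ± 21.5 CPM (adjusted p = 0.327), while *Scd1* was near the detection limit, with 0 counts in 1 library and 1.37 ± 0.536 against 1.19 ± 1.52 CPM. The elongase *Elovl6* stood at −0.03 ± 0.32 (adjusted p = 0.967).

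Levels can be compared between genes only per length. In the wild-type mice, mean CPM per kilobase of exon was highest for *Pmvk* (34.1), *Scd2* (32.6), *Ebp* (31.8), *Acly* (20.7) and *Acat2* (17.4), and lowest for *Scd1* (0.242), *Fdps* (0.863) and *Acaca* (0.949). *Srebf2* and *Srebf1* were at 12.8 and 15.4 on this scale, against 8.80 and 13.4 in the BCL6-insufficient mice. The 8 genes that were lower lay between *Acly* (20.7) and *Idi1* (3.72) on this scale.

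The members did not shift evenly across mice. Wild-type mouse 3 had the highest value of the 6 mice in 20 of the 32 genes and in 13 of the 18 mevalonate and sterol enzymes. BCL6-insufficient mouse 3 had the lowest value in 18 of the 32 and in 11 of those 18. With each gene set to its mean over the 6 mice on the scale of log2 (CPM + 0.5), the median of the 18 enzymes was −0.12, −0.07 and −0.28 in the BCL6-insufficient mice and 0.11, −0.02 and 0.38 in the wild-type mice. BCL6-insufficient mouse 2 and wild-type mouse 2 were thus nearly level. Within wild-type mouse 3 the shift was uneven too, at 0.20 in repeat 1 and 0.61 in repeat 2.

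**Figure D3:**
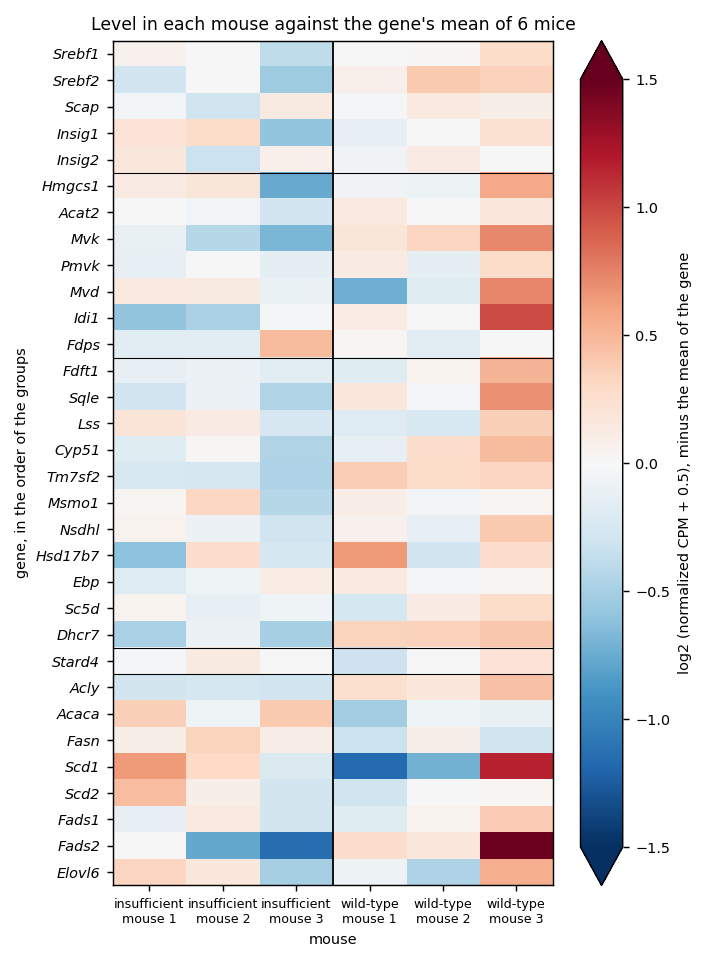
Level of the 32 genes (y axis, in the order of the roles) in each of the 6 mice (x axis), as log2 (normalized CPM + 0.5) minus the mean of the gene, with red above and blue below that mean. Wild-type mouse 3 holds the highest value in 20 genes and BCL6-insufficient mouse 3 the lowest in 18. *Fasn* and *Acaca* have higher means in the BCL6-insufficient group, with overlapping mice.

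How much rested on these mice was measured by leaving out each in turn. Without wild-type mouse 3, 3 members were lower (*Srebf2*, *Dhcr7* and *Acly*), while 5.25% of all genes were. Without BCL6-insufficient mouse 3 there were 4 (7.61% of all genes lower) and without BCL6-insufficient mouse 1 there were 5 (6.09%). Leaving out BCL6-insufficient mouse 2, wild-type mouse 1 or wild-type mouse 2 gave 6, 8 and 7, with 6.67%, 6.21% and 6.74% of all genes lower, and the first 2 of these counts include *Cyp51*. *Srebf2*, *Dhcr7* and *Acly* were called with every mouse left out, with log2 fold changes of −0.69 to −0.42, −0.87 to −0.65 and −0.63 to −0.48. *Fads2* stayed past the threshold in 4 of these 6 fits, with log2 fold changes from −1.84 without BCL6-insufficient mouse 1 to −0.82 without wild-type mouse 3, and was not called without BCL6-insufficient mouse 3 or wild-type mouse 3. *Mvk*, *Idi1* and *Sqle* passed in 3 fits each, and none of them passed without wild-type mouse 3, where they stood at −0.67, −0.44 and −0.35. *Mvk* also lost its call without BCL6-insufficient mouse 2 or 3, *Idi1* without BCL6-insufficient mouse 1 or 2, and *Sqle* without BCL6-insufficient mouse 1 or 3. Their most negative values were −1.02, −1.04 and −0.74. *Tm7sf2* passed in 0 of the 6 fits, its adjusted p then lying between 0.0575 and 0.0883. No sign changed among the 8 genes in any of these fits. With GC and length trends removed, *Mvk* (−0.67, adjusted p = 0.0576) and *Tm7sf2* (−0.55, adjusted p = 0.0773) did not pass.

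The technical repeats, fitted separately, gave fewer calls. From repeat 1 alone, 1 member was lower (*Srebf2*) at a background of 4.54%, and from repeat 2 alone 4 were (*Mvk*, *Dhcr7*, *Acly* and *Fads2*) at a background of 6.11%. The log2 fold change was negative in both repeats for all 8 genes. For *Srebf2* it was −0.76 in repeat 1 and −0.34 in repeat 2, for *Dhcr7* −0.44 and −1.02, and for *Acly* −0.39 and −0.74, so the size differed between repeats.

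**Figure D4:**
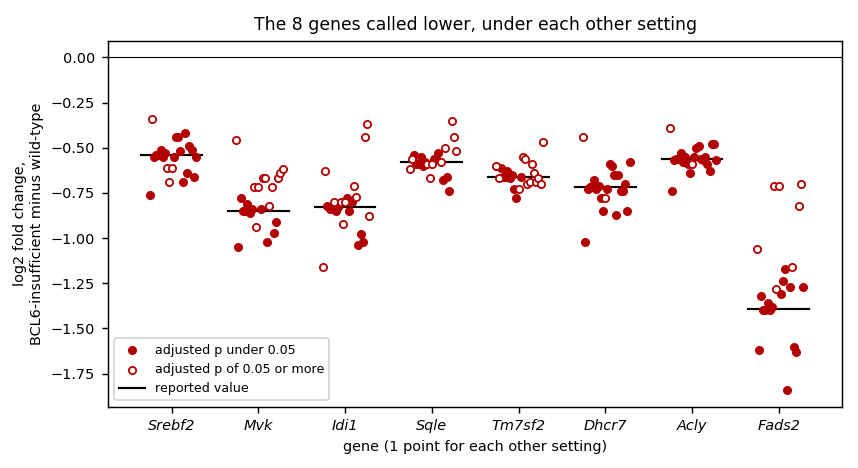
Log2 fold change (y axis, BCL6-insufficient minus wild-type) of the 8 genes called lower (x axis) under 22 other settings, filled where the adjusted p was under 0.05, with a black line at the reported value. All points lie below 0, and *Acly* and *Dhcr7* were called in 20 of 22 settings, *Srebf2* in 18, *Fads2* in 15, *Sqle* in 12, *Mvk* and *Idi1* in 11 and *Tm7sf2* in 9.

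Neighboring steps of lipid metabolism were read from further gene lists, also chosen with earlier results of these data known. Their counts stand against 8.82% lower, 9.17% higher and 49.0% negative among all genes tested. Among genes that cleave SREBPs or degrade sterol-regulated proteins, the ubiquitin-conjugating enzyme *Ube2g2* was lower, at 24.8, 24.1 and 27.3 CPM in the BCL6-insufficient mice and 45.8, 35.5 and 42.6 CPM in the wild-type mice. The groups were apart, the log2 fold change was −0.70 ± 0.16 (SE, edgeR adjusted p = 0.00315), and the call held with every mouse left out. The proteases *Mbtps1* and *Mbtps2*, which release the active SREBP, were at −0.12 and −0.26 and were not called.

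The isoprenoid branches, which use mevalonate for ubiquinone, dolichol and protein prenylation, gave 0 calls in 15 genes by edgeR, with 2 lower (13.3%, against 15.2% of all genes) and 1 higher (6.67%, against 15.7%) at an unadjusted p under 0.05. Of 11 tested genes of sterol uptake, efflux and esterification, 2 were lower (18.2%) and 1 higher. At an edgeR unadjusted p under 0.05, 5 were lower (45.5%, against 15.2%) and 1 higher (9.09%, against 15.7%). *Scarb1*, the HDL receptor that takes up cholesterol ester, was at 14.7 ± 1.80 against 25.4 ± 3.58 CPM (log2 fold change −0.79 ± 0.19, adjusted p = 0.00638), and *Nr1h2*, the oxysterol sensor LXRβ, was at −0.40 ± 0.12 (adjusted p = 0.0263). *Osbp*, which carries cholesterol to the Golgi, was higher at 34.7 ± 5.57 against 18.9 ± 7.89 CPM (0.88 ± 0.24, adjusted p = 0.0116). Without wild-type mouse 3 neither *Scarb1* (adjusted p = 0.052) nor *Osbp* was past the threshold, and *Osbp* was not past it without BCL6-insufficient mouse 2 either. *Nr1h2* was called in 2 of the 6 fits that left out a mouse, those without BCL6-insufficient mouse 2 and without wild-type mouse 3, and stood at −0.17 (adjusted p = 0.381) with GC and length trends removed.

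Among 13 tested genes of carbon and acyl supply, 1 was lower (7.69%). At an edgeR unadjusted p under 0.05, 4 were lower (30.8%, against 15.2% of all genes) and 0 higher (against 15.7%). The called gene was *Mid1ip1*, which promotes polymerization of acetyl-CoA carboxylase, at 36.6 ± 5.86 against 55.1 ± 10.7 CPM (log2 fold change −0.59 ± 0.16, adjusted p = 0.0113), with overlapping mice. It was called in 3 of the 6 fits that left out a mouse, and not without BCL6-insufficient mouse 1, wild-type mouse 2 or wild-type mouse 3, nor with GC and length trends removed (adjusted p = 0.0592). Of the 14 tested genes of fatty acid oxidation, which breaks down what the enzymes above make, 5 were lower (35.7%, against 8.82% of all genes) and 0 higher, 13 had a negative difference (92.9%, against 49.0%), and their median log2 fold change was −0.36 against 0.01. They were the acyl-CoA dehydrogenases *Acadm* (−0.68) and *Acadvl* (−0.46), the trifunctional protein subunit *Hadhb* (−0.68), the reductase *Decr1* (−0.57) and the electron carrier subunit *Etfa* (−0.45). *Hadhb*, at 55.5, 71.8 and 78.3 CPM in the BCL6-insufficient mice and 113, 95.9 and 119 CPM in the wild-type mice, was called with every mouse left out (adjusted p = 0.00102 to 0.00744). *Etfa* was called in 4 of those 6 fits, *Acadvl* in 3, and *Acadm* and *Decr1* in 1, and these 4 genes were not called without wild-type mouse 3. With GC and length trends removed, *Acadm* (adjusted p = 0.0714), *Acadvl* (0.103) and *Decr1* (0.0516) did not pass.

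Genes of the cell cycle moved with the groups as well. Of 14 proliferation genes, *Mki67* (0.63) and *Top2a* (0.54) were higher and the replication licensing genes *Mcm4*, *Mcm5*, *Mcm6* and *Mcm7* (−0.48 to −0.40) were lower (28.6% of the list, against 8.82%). *Mcm6* was not called without wild-type mouse 3. Among the 7 Tfh markers, all were detected, *Bcl6* and *Icos* (0.64) were higher, and *Cxcr5* (−0.40), *Pdcd1* (−0.42) and *Cd4* (−0.34) were lower. *Cd4* was called in 2 of the 6 fits that left out a mouse, those without BCL6-insufficient mouse 1 and without wild-type mouse 2, and in 10 of all 22 alternatives, not with GC and length trends removed (adjusted p = 0.191). Their part in the differences of the lipid genes was not tested.

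Markers of other cells were present in varying amounts. Of 7 B cell genes, 5 were tested and 0 called by edgeR, with 0 higher and 1 lower at an unadjusted p under 0.05. The sum of the list without *Ighm* ran from 7.28 to 93.2 CPM in the BCL6-insufficient group and from 8.09 to 66.8 CPM in the wild-type group, with the highest values in BCL6-insufficient mouse 2 and wild-type mouse 3. *Ighm* was at 499 to 765 CPM in all mice, and the B cell gene *Ms4a1* was at no more than 1.14 CPM in any. With BCL6-insufficient mouse 2 and wild-type mouse 3 both left out, *Srebf2*, *Dhcr7* and *Acly* were lower and the other 5 genes did not pass, at a background of 3.9% lower.

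Of 7 myeloid and dendritic cell markers, 5 were in the count table, and their sum, most of it *Cst3* (79.9 to 96.2 CPM against 73.4 to 78.8 CPM), was 107 to 112 CPM in the BCL6-insufficient group and 83.6 to 89.3 CPM in the wild-type group, without overlap. Of the 4 tested, *Lyz2* was higher (log2 fold change 2.64 ± 0.63, edgeR adjusted p = 0.00531), at 16.5, 3.67 and 3.19 CPM against 0.0916, 2.04 and 1.58 CPM, and it was not called without BCL6-insufficient mouse 1 (adjusted p = 0.201) or by DESeq2 (adjusted p = 0.1). At an unadjusted p under 0.05, 2 of the 4 were higher (against 15.7% of all genes) and 0 lower, the other being *Csf1r* at 8.30, 9.62 and 9.36 CPM against 4.95, 5.87 and 5.18 CPM (log2 fold change 0.77 ± 0.29, edgeR adjusted p = 0.0676), whose groups did not overlap. Of 7 stromal, endothelial and fat cell genes, 4 were in the count table and 2 were tested. The list summed to 57.4 to 75.0 CPM in the BCL6-insufficient group and 74.5 to 88.5 CPM in the wild-type group. Most of this was *Pecam1*, at 56.5 to 74.2 CPM against 73.2 to 87.3 CPM. Of the list, 0 were called, with 0 higher and 0 lower at an edgeR unadjusted p under 0.05. No listed marker in the table was at 0 in all mice, and the part of these cells in the lipid gene differences was not tested.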

How the data were processed

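Messenger RNA of sorted OT-II Tfh cells from 6 recipient mice was analysed, with 2 technical repeats of each. Per the labels, the authors aligned reads to mm10 (GRCm38) with HISAT2 2.2.1 and counted them per gene with HTSeq, and they deposited raw counts. Neither strandedness nor annotation release was given in the sources used here. They also deposited TPM values, used only as an alternative. Grouping followed the labels, and no column was left unmapped.

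The counts of both repeats were summed per mouse and tested between groups in R 4.3.3 by the quasi-likelihood method of edgeR 4.0.16 (TMM, filterByExpr, Benjamini-Hochberg adjustment over all 12719 genes tested). As no molecular identifiers were used, counting error covers reads and not molecules. Coordinates, exon lengths and shared sequence came from a GRCm38 annotation that held 23822 symbols under the same name and 209 under a synonym, and lacked 530. The procedure was tested on simulated data.

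The members and all gene lists were chosen with earlier results of these data known. All 32 members are named, as are the genes of other lists whose adjusted p was under 0.05, except for an item that is not reported here, while other genes of those lists that are named were chosen after their values were seen. Alternatives were each repeat alone, voom of limma 3.58.1 with a random effect for the mouse, DESeq2 1.42.0, other scalings and filters, log2 (TPM + 1) and log2 (TPM + 0.1) with limma, a replicate block, removal of GC and length trends by mgcv 1.9.3 (98.9% of tested genes had both values), and each mouse left out.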

Additional observations from a re-analysis of the deposited data

Results flagged for a closer look

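In 64 groups of 6 libraries (32 genes in 2 groups), a library far from the others of its group was looked for by Dixon's test at the 95% level, which chance would give in about 3.2 groups, and 3 were found. *Lss*, which makes lanosterol, was at 30.6 CPM in wild-type mouse 3 repeat 2, against a median of 18.9 CPM in the other wild-type libraries. *Hsd17b7*, a sterol 3-ketoreductase, was at 17.4 CPM in wild-type mouse 1 repeat 2, against a median of 6.9 CPM. The desaturase *Scd1* was at 4.44 CPM in wild-type mouse 3 repeat 2, against a median of 0.363 CPM. None of these 3 genes was called between the groups by edgeR (adjusted p = 0.943 for *Lss*, 0.377 for *Hsd17b7* and 0.9 for *Scd1*).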

How the results depend on the processing

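The median log2 fold change of the members was negative under all 22 alternatives, from −0.29 to −0.08 with −0.18 reported, and moved by less than the spread between mice (0.17). With log2 (TPM + 0.1) the median of all genes itself shifted to −0.11. Of 8 members lower, 1 was called from repeat 1 alone (1059 of all genes called, against 2288), 4 from repeat 2 alone (1446) and 3 on the log2 (TPM + 1) scale (1305). On the log2 (TPM + 0.1) scale it was 3 (1260). In this order, the share of all genes that were lower was 4.54%, 6.11%, 7.2% and 6.97%, against 8.82% in the reported fit. The log2 (TPM + 1) scale with no filter on low genes gave 0 (221), with 143 of all genes lower (0.639%) and 78 higher. There, 9 members were lower at an unadjusted p under 0.05 by limma. The share of all genes at that threshold was not determined, so this count has no background beside it. In edgeR, a filter of at least 1 count in any mouse gave 9 lower, with 2348 genes called and 5.39% of all genes lower. After seeing the data, 2 alternatives were added. Without BCL6-insufficient mouse 2 and wild-type mouse 3, 3 members were lower (1080 genes called), and with wild-type mouse 3 by repeat 1 alone, 4 were (1817 genes called, 7.14% of all genes lower). Leaving out each mouse gave 3 to 8 members lower, 0 to 1 higher and 1424 to 1972 genes called, with the lowest counts without wild-type mouse 3.

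The mouse numbers did not pair the mice, since same-numbered mice correlated at 0.085, −0.028 and 0.025 in their deviations from the group means. With a replicate block, 8 members were lower and 1 higher, while 10.1% of all genes were lower and 10.2% higher. The 1 member higher was *Fasn*, which also passed with voom (1 higher), upper-quartile scaling (1), at least 10 counts in every library (1), and removal of GC and length trends with the replicate block (1). *Fasn* passed without wild-type mouse 2 as well (edgeR adjusted p = 0.0215). Removal of GC and length trends without the block gave 6 lower, against 7.46% of all genes.

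Of 697 single-gene values under the alternatives, 558 kept direction and call, 60 lost the call, 11 gained it and 68 changed sign, the last all in genes that were not called under either. From repeat 1 alone these were *Insig1* (0.18), *Insig2* (0.39), *Pmvk* (0.02), *Mvd* (0.05), *Fdps* (−0.19), *Fads1* (0.19) and *Elovl6* (0.16), and from repeat 2 alone *Lss* (−0.25) and *Msmo1* (0.21). With voom they were *Mvd* (0.11), *Fdps* (−0.10), *Msmo1* (0.04) and *Elovl6* (0.05), with upper-quartile scaling *Insig1*, *Msmo1* and *Elovl6* (0.01 each) and *Mvd* (0.03), and with at least 10 counts *Mvd* (0.00154). In the TPM fits they were *Fdps* (−0.02) and *Stard4* (−0.09 to −0.08). The replicate block turned *Mvd* (0.12) and *Elovl6* (0.00327). Removing GC and length trends turned *Scap* (0.03), *Insig1* (0.06), *Insig2* (0.01), *Mvd* (0.19), *Lss* (−0.06) and *Stard4* (−0.03), and with the block *Scap* (0.03), *Insig1* (0.02), *Insig2* (0.000435), *Mvd* (0.31), *Lss* (−0.03) and *Stard4* (−0.01). Without both mice named above they were *Insig2* (0.08), *Mvd* (0.48), *Sc5d* (0.05) and *Elovl6* (0.25), and with wild-type mouse 3 by repeat 1 *Insig1* (0.03), *Insig2* (0.09), *Mvd* (0.29) and *Elovl6* (0.05). With 1 mouse left out, the log2 fold change spanned 0 for *Insig1* (−0.18 to 0.20), *Insig2* (−0.15 to 0.10), *Mvd* (−0.30 to 0.51), *Fdps* (−0.14 to 0.27), *Lss* (−0.09 to 0.25), *Msmo1* (−0.21 to 0.15), *Sc5d* (−0.26 to 0.01), *Stard4* (−0.09 to 0.18), *Scd1* (−0.31 to 2.09), *Scd2* (−0.00227 to 0.36) and *Elovl6* (−0.25 to 0.31). The cause of these changes was not tested. *Scd1* fell to 0 counts and *Fdps* to 8 counts in their lowest libraries, so that depth limits what can be said of these genes.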
